A study of Mus musculus with 6 samples.

Results

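Insulin signalling and glucose uptake were examined through 10 genes: Insr, Irs1, Irs2, Pik3r1, Akt2, Tbc1d1, Tbc1d4, Slc2a4, Slc2a1 and Slc2a3. They were chosen by name for their roles in the pathway, every array probe whose RefSeq accession belongs to one of them was taken, and all 10 were among the 20900 genes that could be tested. The array carried 17 probes for them, and each of the 17 was well above background on all 6 arrays. The samples were gastrocnemius muscles, a large calf muscle, of 3 young male mice (13 weeks of age) and 3 aged male mice (26 months of age), and each mouse had its own single-colour Agilent array. The methods name C57BL/6J as the strain. No mutation or treatment is given for either group, and the groups were set by age. The methods also give a higher mean body weight and a lower mean gastrocnemius weight for the aged mice. The part of these weights in the values was not tested. RNA came from whole muscle, so that fewer cells of a type and less RNA per cell cannot be told apart.

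Insulin binds its receptor on the muscle fibre, and the receptor phosphorylates docking proteins of the IRS family. These recruit PI3-kinase, whose lipid product activates the kinase AKT. AKT phosphorylates the RabGAPs TBC1D1 and TBC1D4, which releases vesicles that carry the glucose transporter GLUT4 to the cell surface. Skeletal muscle is the main site of insulin-stimulated glucose disposal, and most steps of this pathway are controlled by phosphorylation and by the movement of proteins, which arrays of mRNA do not measure.

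The gene for GLUT4, Slc2a4, was 0.746-fold in aged mice, and it was the only member whose 3 aged mice all lay below the 3 young mice. The 9 other members overlapped between the groups on the probe that stands for the gene, the brightest where there were several. No member passed the threshold (0 of 10 with limma at an adjusted p under 0.05), and 1 of 10, Slc2a4, had an unadjusted p under 0.05. Among all 20900 genes, 53 passed the threshold (0.254%), 3016 had an unadjusted p under 0.05 (14.4%) and 4559 had groups without overlap (21.8%). The members' share of 10% was thus no larger than that of all genes for either of the last measures. The mean of aged mice was higher for 4 members and lower for 6, with a median log2 change of -0.20 against -0.06 over all genes, of which 56.9% had a lower mean in aged mice.

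Values are log2 signals relative to the 75th percentile of the same array, so that 0 is the level of that percentile and 1 unit is a doubling. A probe's brightness depends on its sequence as well as on the transcript, so levels are compared between mice and never between probes. Markers of the labelled tissue were present: all 10 fibre markers, such as Acta1, Ckm and Myh4, were well above background on every array, with log2 signals between 7.54 (Myh7) and 10.12 (Tnnt3). The 75th percentile itself lay between 209 and 300 units of processed signal in young mice and between 270.4 and 310 in aged mice, no probe was saturated, and 48.7% to 53.8% of probes were well above background. The 6 arrays were on 1 slide, with the 3 young mice and aged mouse 1 in row 1 and aged mice 2 and 3 in row 2.

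**Figure D1:**
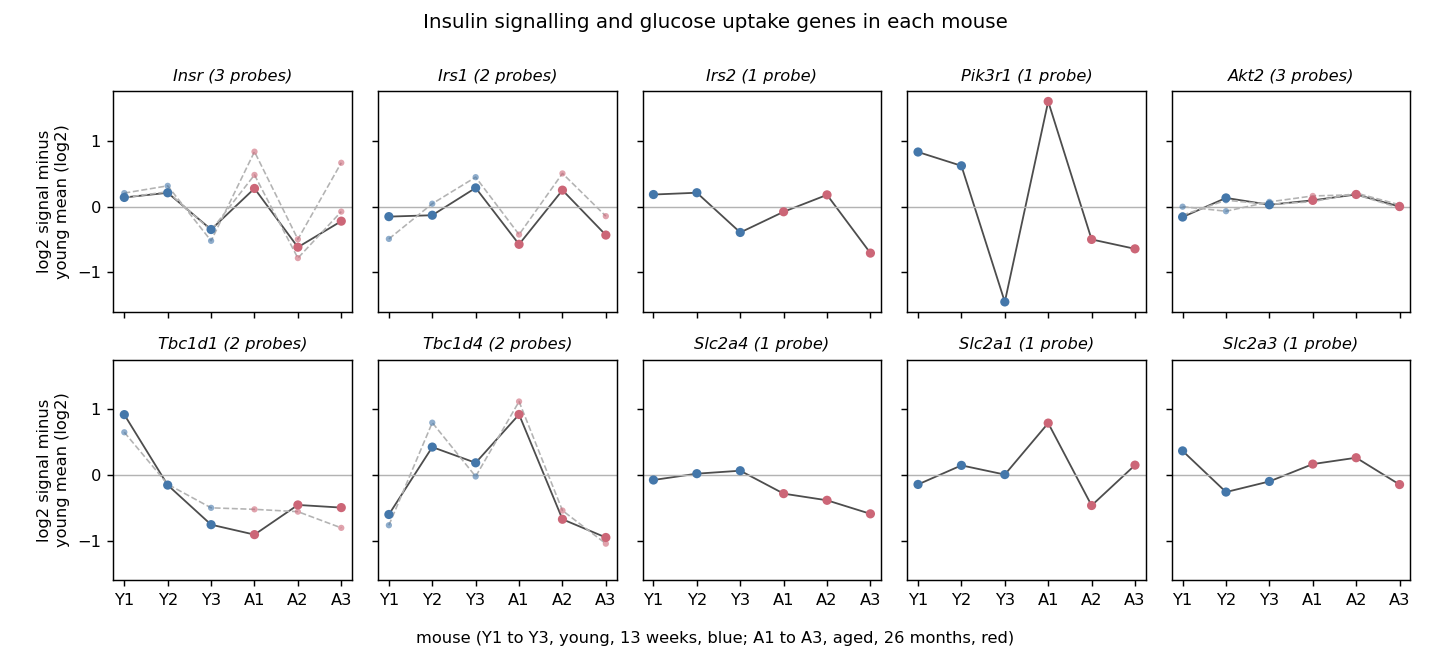
Log2 signal of each member minus the mean of the 3 young mice, by mouse (young 1 to 3 in blue, aged 1 to 3 in red), 1 panel per gene on a common axis; the solid line is the probe that stands for the gene and dashed lines are its other probes. On solid lines only Slc2a4 has all 3 aged mice below the 3 young mice, the dashed line of Tbc1d1 shows the same separation, and the points of Pik3r1 span the widest range.

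For the insulin receptor gene Insr (NM_010568), young mice 1 to 3 measured 1.26, 1.33 and 0.78, and aged mice 1 to 3 measured 1.40, 0.51 and 0.90. Aged mouse 1 was the highest of all 6 and aged mouse 2 the lowest, so that the aged mice spanned the whole range of the young. The means were 1.13 ± 0.30 (SD, n = 3) and 0.94 ± 0.45 (SD, n = 3), a log2 change of -0.19 ± 0.28 (SE) with a limma adjusted p of 0.780. Its 2 other probes gave changes of -0.13 and 0.33, so the probes did not share a direction, although aged mouse 1 was the highest on each of the 3.

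Irs1 and Irs2 encode the docking proteins through which the receptor reaches PI3-kinase in muscle. Irs1 (NM_010570) measured 5.04, 5.06 and 5.47 in young mice and 4.62, 5.44 and 4.76 in aged mice. Aged mice 1 and 3 were below every young mouse, while aged mouse 2 was level with the highest of them. The change was -0.25 ± 0.26 (SE), 0.840-fold, with an adjusted p of 0.683, and the dimmer of its 2 probes gave -0.02. Irs2 (NM_001081212, 1 probe) measured 5.16, 5.19 and 4.59 in young mice and 4.90, 5.16 and 4.27 in aged mice. Each group held a low mouse, young mouse 3 and aged mouse 3. The change of Irs2 was -0.20 ± 0.29 (SE), 0.869-fold, with an adjusted p of 0.772.

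Pik3r1 encodes the p85 alpha regulatory subunit that ties the PI3-kinase catalytic subunit to phosphorylated IRS proteins. Its probe (NM_001077495) measured 1.99, 1.78 and -0.29 in young mice and 2.75, 0.66 and 0.52 in aged mice. Young mouse 3 was the lowest and aged mouse 1 the highest, and mice of the same age differed more than the group means did. The change was 0.15 ± 0.80 (SE), with a 95% interval from -1.74 to 2.05 and an adjusted p of 0.941. The SD within groups, 1.26, stood at percentile 98.8 of all genes tested, so that these 3 mice per group gave an interval that spans a lower as well as a higher level. The array order with aged mouse 1 highest and young mouse 3 lowest was shared by 4.76% of all genes.

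Akt2, the AKT isoform most tied to insulin-stimulated glucose transport, varied little. The probe that stands for it (NM_001110208) measured 7.04, 7.33 and 7.23 in young mice and 7.30, 7.39 and 7.20 in aged mice. The groups overlapped, and the lowest mouse was young mouse 1. The change was 0.09 ± 0.16 (SE), 1.07-fold, with a 95% interval from -0.28 to 0.47 and an adjusted p of 0.810. The 2 other probes gave 0.10 and 0.11. Its direction flipped to -0.05 when arrays were scaled to their median, a scaling that moved the median of all genes by -0.15. The SD of Akt2 within groups was 0.123, at percentile 9.01 of all genes.

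Tbc1d1 and Tbc1d4 encode RabGAPs that hold GLUT4 vesicles inside the fibre until AKT or AMPK phosphorylates them. Tbc1d1 (NM_019636) measured 6.01, 4.94 and 4.34 in young mice and 4.19, 4.64 and 4.60 in aged mice. The young mice were spread widely, and the aged mice lay close together near the lowest young mouse. The change was -0.62 ± 0.41 (SE), 0.650-fold, the lowest among the members, with an adjusted p of 0.523. Young mouse 1 set much of it: without that mouse the change was -0.16, and without young mouse 3 it was -1.0. On the dimmer probe of Tbc1d1 the values were -0.40, -1.19 and -1.55 in young mice and -1.57, -1.61 and -1.85 in aged mice. There young mouse 3 lay just above aged mouse 1, so that the groups did not overlap, and the change was -0.63 with an adjusted p of 0.414 over all probes.

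Tbc1d4, also known as AS160, measured 2.60, 3.62 and 3.39 in young mice and 4.12, 2.53 and 2.25 in aged mice (NM_001081278). Aged mouse 1 was the highest of the 6 mice and aged mice 2 and 3 the lowest. The change was -0.24 ± 0.52 (SE), with an adjusted p of 0.856, and the second probe gave -0.16 with the same highest mouse. Within-group SD was 0.807, at percentile 94.5 of all genes. Within slide row 1, where aged mouse 1 was set against the 3 young mice, the change was 0.92, the opposite direction.

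Slc2a4 encodes GLUT4, the insulin-responsive transporter of muscle and fat. Its 1 probe (NM_009204) was spotted 10 times per array, of which 6 to 10 spots per array were used, and the SD of log2 signal among spots of an array was 0.035 to 0.069. The log2 signal was 8.39, 8.49 and 8.54 in young mice and 8.19, 8.09 and 7.88 in aged mice. In linear terms this was 337, 360 and 371 times the 75th percentile in young mice and 292, 272 and 236 times in aged mice. The groups did not overlap. Means were 8.47 ± 0.07 (SD, n = 3) and 8.05 ± 0.16 (SD, n = 3), a log2 change of -0.42 ± 0.16 (SE) with a 95% interval from -0.80 to -0.045. The limma p was 0.033 and the adjusted p over all genes 0.306, which did not pass the threshold.

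Over the alternative settings the change of Slc2a4 lay between -0.57 and -0.17 and its adjusted p between 0.184 and 0.686, and several settings leave the value of a gene with 1 probe as it is by construction. The unadjusted limma p was under 0.05 in 8 of 18 settings. It was 0.123 with quantile normalization (change -0.30), 0.052 with scaling to detected probes (change -0.39) and 0.097 with the replicate block. Leaving out 1 mouse at a time gave -0.49 to -0.34, and p was under 0.05 only without aged mouse 1. Within slide row 1, where the aged group is the single aged mouse 1, the change was -0.29. Bright genes as a class were lower in aged mice on these arrays: the 406 genes with a mean log2 signal above 8, the band of Slc2a4, had a median change of -0.16, and their median deviation from the young mean was -0.32, -0.03 and -0.10 in aged mice 1, 2 and 3. The part of this shift in the value of Slc2a4 was not tested.

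Fibre markers, like Slc2a4, had lower means in aged mice. This held for all 10, 0 of 10 passed the threshold, and their median change was -0.20. The 10 markers lay in the same band of bright genes as Slc2a4, whose 406 genes had a median change of -0.16. The part of that shift in the marker values was not tested. Their summed signal, in multiples of the 75th percentile, was 6387 to 7806 in young mice and 5337 to 6822 in aged mice. Slc2a4 minus the mean of the 10 fibre markers was -0.83, -0.93 and -1.01 in young mice and -0.80, -1.22 and -1.27 in aged mice. On this measure aged mouse 1 was the highest of the 6 mice and aged mice 2 and 3 were the lowest, so that the groups overlapped. The means were -0.92 ± 0.09 and -1.10 ± 0.26 (SD, n = 3 each). Scaled to the fibre markers, which moved the median of all genes by 0.25, Slc2a4 had a change of -0.17 with a limma p of 0.399.

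**Figure D2:**
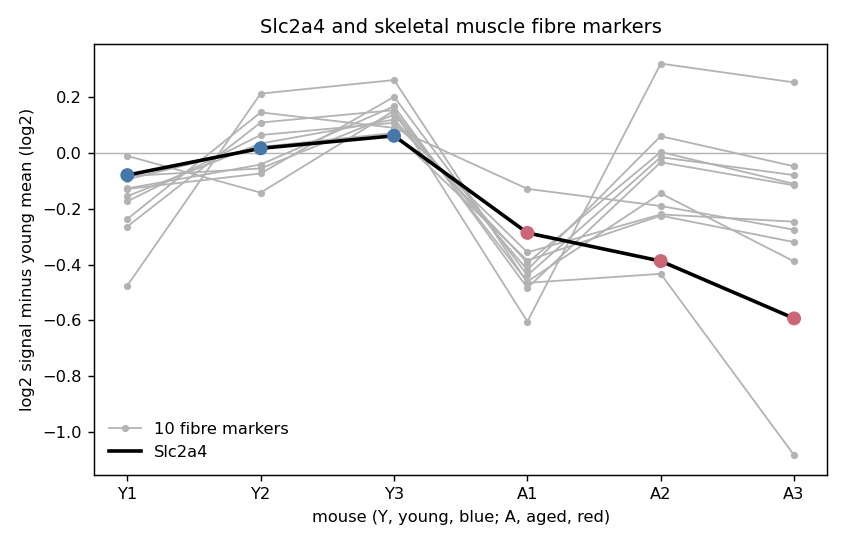
Log2 signal minus the mean of the 3 young mice for Slc2a4 (black line, coloured points) and the 10 skeletal muscle fibre markers (grey), by mouse. In aged mouse 1 Slc2a4 lies above most markers, and in aged mice 2 and 3 it lies below most of them.

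The other transporters carry glucose without insulin. Slc2a1 encodes GLUT1, a basal transporter that is also abundant in endothelium, perineurium and red cell precursors. Its probe (NM_011400) measured 2.28, 2.57 and 2.43 in young mice and 3.21, 1.96 and 2.57 in aged mice. Young mice lay close together, while aged mouse 1 was above and aged mouse 2 below all of them. The change was 0.16 ± 0.32 (SE), 1.11-fold, with an adjusted p of 0.843. Within slide row 1, where aged mouse 1 stands alone for its group, it was 0.79, and without aged mouse 1 it was -0.16. Slc2a3 encodes GLUT3, the high-affinity transporter best known from neurons. It measured 2.43, 1.81 and 1.97 in young mice and 2.23, 2.33 and 1.92 in aged mice (NM_011401). The aged mice all lay within the young range. The change was 0.09 ± 0.22 (SE), with an adjusted p of 0.869, and it flipped to -0.06 when arrays were scaled to their median.

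**Figure D3:**
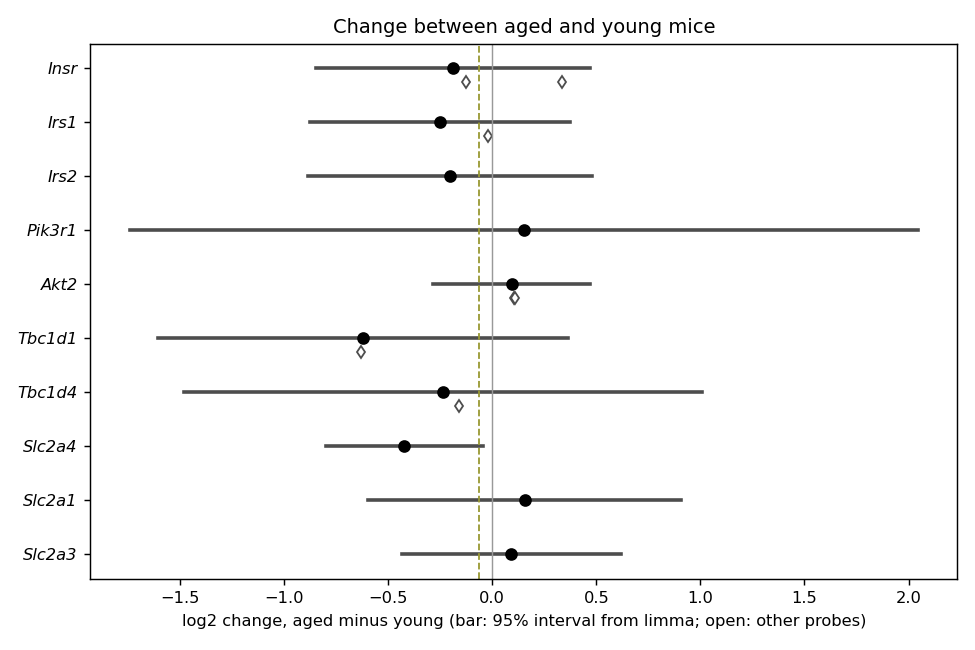
Log2 change of each member, aged minus young (points), with its 95% interval from limma (bars, 3 mice per group); open diamonds are the other probes of a gene and the dashed line is the median of all genes tested, -0.06. The interval of Slc2a4 ends at -0.045 and those of the 9 other members include 0.

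Aged mice differed among themselves across the members. Of the 10 members, 4 lay below the young mean in aged mouse 1, while aged mouse 2 had 6 below it and aged mouse 3 had 8, with median deviations of 0.13, -0.42 and -0.47. Aged mouse 1 held the highest value of all 6 mice for 4 of 10 members (Insr, Pik3r1, Tbc1d4 and Slc2a1), as it did for 15.9% of all genes. Aged mouse 3 held the lowest for 3 of 10 (Irs2, Tbc1d4 and Slc2a4), as it did for 24.1% of all genes. The median SD within groups was 0.392 over the members and 0.275 over all genes. Aged mouse 1 was also the only aged mouse in row 1 of the slide, so the mouse and the row cannot be told apart. Within that row the change was 0.28 for Insr, -0.57 for Irs1, -0.08 for Irs2, 1.60 for Pik3r1, 0.10 for Akt2, -0.91 for Tbc1d1 and 0.16 for Slc2a3, each a value of 1 aged mouse with no spread of its own.

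Markers of other cells were compared in the same way. Summed over each list, in multiples of the 75th percentile, endothelial markers (6 of 6 tested) were 31.1 to 34.8 in young mice and 21.4 to 29.9 in aged mice. Brighter probes weigh most in such sums: 3 of these 6 means were lower in aged mice (Cdh5 -0.79, Kdr -0.36 and Vwf -0.31) and 3 were higher (Pecam1 0.52, Tek 0.46 and Emcn 0.06), with a median change of -0.13 and 0 past the threshold. Adipocyte markers (5 of 6 tested) were 55.1 to 61.2 in young mice and 39.6 to 63.1 in aged mice (4 means lower, 1 higher), with Adipoq well above background on every array and Lep too dim to test. Erythroid markers (5 of 7 tested) were 635 to 922 in young mice and 289 to 459 in aged mice, with all 5 means lower. Slc2a4 is expressed in fat as well as in muscle, and Slc2a1 in endothelium and red cell precursors, and the part of these cells in their values was not tested. Fibroblast markers (5 of 5 tested) were 368 to 423 in young mice and 165 to 328 in aged mice, with all 5 means lower. Macrophage markers (5 of 6 tested) summed to 18.9 to 20.9 in young mice and 20.9 to 26.2 in aged mice, with 4 means higher, a median change of 0.46, and changes from -0.05 for Csf1r to 1.08 for Cd68. Neutrophil markers (5 of 6 tested) summed to 156 to 161 in young mice and 169 to 199 in aged mice, a sum that Csf3r (change 0.05) dominated. Their median change was 3.45, with 4 means higher and 1 lower. That median was the change of Retnlg, whose probe was well above background on 0 of 3 young and 3 of 3 aged arrays. The probe was thus kept through its aged arrays alone. S100a8 and S100a9 were 27.9-fold and 25.9-fold higher in aged mice (limma adjusted p 0.0060 each). Camp went the other way, at -0.40 (adjusted p 0.297), with all aged mice below all young mice. Lymphocyte markers (3 of 6) were 2.63 to 2.75 and 2.11 to 2.93, and Schwann cell and perineurium markers (5 of 5) 17.8 to 36.5 and 20.3 to 36.8. Of these lists, 2 neutrophil markers (S100a8 and S100a9, both higher) and 1 Schwann cell marker (Prx, lower) passed the threshold.

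The rest of the pathway was read from 6 lists, and 0 of their 74 tested genes passed the threshold. Of receptor adaptors and positive regulators, 10 of 10 were tested, with 6 means higher and 4 lower in aged mice, 0 with an unadjusted p under 0.05 and a median change of 0.02. Their largest increase was 0.22 for the docking protein gene Gab1 (adjusted p 0.881), and their largest decrease was -0.47 for Cav3, the caveolin of muscle membranes (adjusted p 0.421).

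Inhibitors of insulin signalling block or reverse steps between the receptor and AKT. Of 16 listed, 15 were tested, with 6 means higher and 9 lower and a median of -0.03. An unadjusted limma p under 0.05 was found for 5 (33.3%), 1 higher and 4 lower, beside 14.4% of all genes. Groups did not overlap for 4 (26.7%), all lower, beside 21.8% of all genes. Grb14, an adaptor that binds the activated receptor and blocks its kinase, measured -1.30, -2.28 and -2.85 in young mice and -2.05, 1.27 and 1.18 in aged mice. Aged mice 2 and 3, both in slide row 2, stood far above every young mouse, and aged mouse 1 lay within the young range. The change was 2.27 ± 0.92 (SE) with a limma adjusted p of 0.332. The probe was dim in young mice, and with normexp background correction the change was 1.55 with an adjusted p of 0.301. Leaving out aged mouse 1, the mouse unlike the other two, gave 3.37 with an adjusted p of 0.040, while leaving out aged mouse 2 gave 1.71 (adjusted p 0.476), aged mouse 3 gave 1.75 (0.671) and young mouse 3 gave 1.92 (0.528). Within slide row 1 the change was 0.09. Ptprf, the receptor phosphatase LAR, measured -1.26, -0.42 and -1.31 in young mice and -2.04, -3.25 and -2.20 in aged mice. All aged mice were below all young mice, and the change was -1.50 ± 0.39 (SE) with a limma adjusted p of 0.189. The probe was dim, and over the alternatives the change of Ptprf lay between -1.72 and -0.87. The groups of Inppl1, the gene for a phosphatase of the PI3-kinase product, did not overlap either, with a change of -0.53 (adjusted p 0.226). Socs6 gave -0.54 on 1 probe without overlap (adjusted p 0.285) and 0.05 on another.

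Of the list of PI3-kinase, PDK1, AKT and mTORC2, 12 of 13 genes were tested, with 6 means higher and 6 lower and a median of -0.01. An unadjusted limma p under 0.05 was found for 3 (25%), beside 14.4% of all genes. Groups did not overlap for 4 (33.3%), beside 21.8% of all genes. Rictor, the scaffold of the mTORC2 complex that phosphorylates AKT, measured 0.52, 0.24 and -0.17 in young mice and 1.21, 1.08 and 1.13 in aged mice. Its aged mice lay close together above all young mice, and the change was 0.94 ± 0.21 (SE), 1.92-fold, with an adjusted p of 0.153. Over the alternatives the change of Rictor lay between 0.75 and 1.18 and its adjusted p between 0.126 and 0.401.

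Genes of GLUT4 vesicle traffic and fusion, all 22 tested, had 11 means higher and 11 lower and a median of 0.0027. An unadjusted limma p under 0.05 was found for 4 (18.2%), 3 higher and 1 lower, beside 14.4% of all genes. Groups did not overlap for 6 (27.3%), beside 21.8% of all genes. Pak1, a kinase activated by Rac1 in the actin remodelling that brings GLUT4 to the surface, measured 0.62, 0.43 and -0.26 in young mice and 1.65, 1.05 and 2.31 in aged mice. The groups did not overlap, and the change was 1.41 ± 0.37 (SE), 2.66-fold, with an adjusted p of 0.192. Doc2b, a calcium sensor for vesicle fusion, had the largest decrease at -1.65 ± 1.20 (SE), with an adjusted p of 0.556 and a signal well above background in 1 of 3 aged mice.

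Of 8 other sugar transporters of the SLC2 family, 4 were tested, since Slc2a2, Slc2a5 and Slc2a9 were too dim and no probe was matched to Slc2a12. Slc2a6, which encodes GLUT6, measured -2.72, -2.89 and -3.29 in young mice and -2.07, -1.64 and -1.50 in aged mice. All aged mice were above all young mice, and the change was 1.23 ± 0.23 (SE), 2.35-fold, with an adjusted p of 0.118. The probe was dim, and with normexp background correction the change was 0.49 with an adjusted p of 0.198. GLUT6 is known from leukocytes, and the part of the macrophage and neutrophil markers given above in this value was not tested. Slc2a13, which encodes a proton-coupled inositol transporter, had a change of -0.51 (adjusted p 0.337). Among AMPK subunits, LKB1 and inhibitors of glucose uptake, all 11 tested, 4 means were higher and 7 lower, with a median of -0.17 and 0 with an unadjusted p under 0.05. Txnip, an arrestin that removes glucose transporters from the surface, measured 5.72, 6.34 and 4.19 in young mice and 7.04, 5.98 and 6.23 in aged mice. The change was 1.0 ± 0.56 (SE), the largest increase of this list, with an adjusted p of 0.458. Its groups overlapped because young mouse 2 lay above aged mice 2 and 3. The dimmer probe of Txnip measured 2.46, 2.97 and 1.83 in young mice and 3.76, 2.99 and 3.02 in aged mice, without overlap, and its change was 0.83 with an adjusted p of 0.360 over all probes. Prkaa2, a catalytic subunit of AMPK in muscle, had the largest decrease at -0.30 (adjusted p 0.459).

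**Figure D4:**
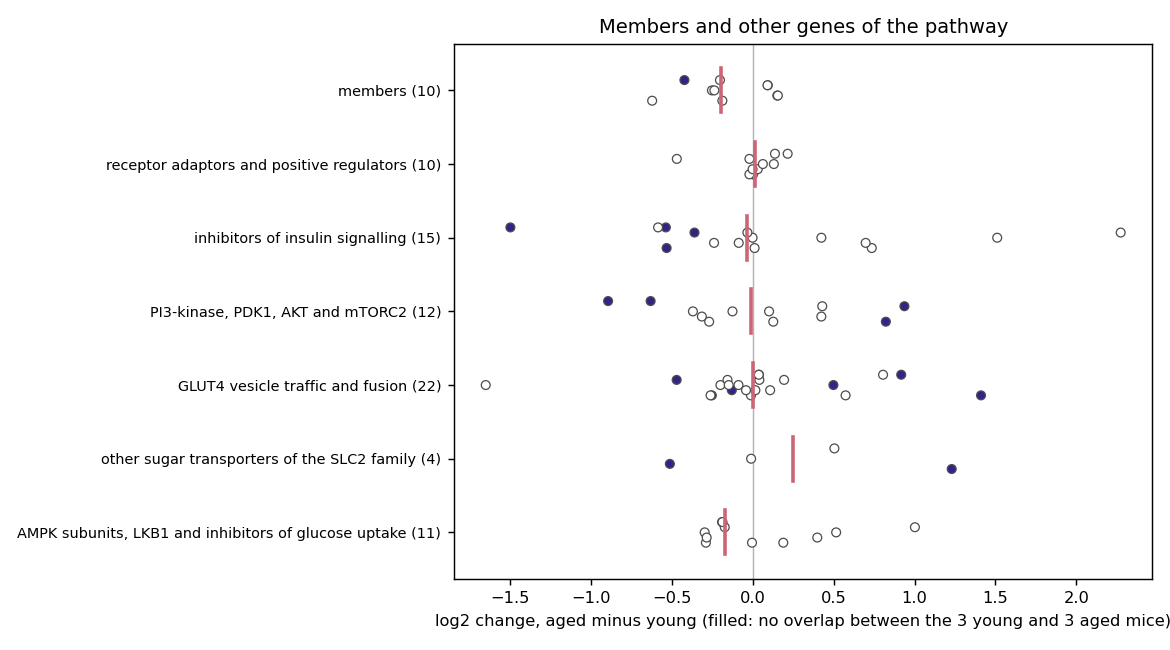
Log2 change, aged minus young, of every tested gene of the members and of 6 pathway lists (number tested in brackets); filled points are genes whose 3 aged and 3 young mice do not overlap, and red bars are medians. The medians lie between -0.20 for the members and 0.25 for the other sugar transporters, and the lists spread to both sides of 0.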

How the data were processed

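Total RNA of gastrocnemius from 3 young and 3 aged mice was labelled with Cy3 and hybridized to 1 array per mouse (design 028005, built on mm9). The authors deposited scanner output with intensity values on a linear scale, in which the processed signal is background-subtracted and detrended within the array but not scaled between arrays. The submitters' processing notes name Agilent Feature Extraction 9.5, while the file headers name 11.0.1.1. Intensities of the deposited series matrix were identical to these (largest log2 difference 0). The methods' text names no normalization or test for the arrays.

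Of 62976 spots per array, 59305 were not controls, and spots flagged as outliers (161 to 212 per array) were left out. Averaging log2 signals over repeated spots gave 55681 probes, and each array was set relative to its own 75th percentile. Accessions were matched to RefSeq transcripts of GRCm38.p6 for gene symbols (28331 probes matched, 27350 not). Coordinates are not given, since the design was made on another build. Probes well above background on at least 3 of 6 arrays were kept (28000), and 12 without a value on some array were left out. The brightest kept probe on average stood for each gene, which gave 20900 genes (13843 with a symbol).

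The age groups were contrasted by lmFit and eBayes of limma 3.58.1 (R 4.3.3), and p-values were adjusted across all 20900 genes by Benjamini and Hochberg's method, with significance set at 0.05. The script was first checked on simulated data. An exact two-sided permutation test of 3 against 3 mice cannot go below p = 0.1, so none was run. The number of arrays limits the precision.

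Members, lists and tests were chosen with earlier results of these data known. The genes named are the 10 members with every probe, and of each pathway list any gene past the threshold and the tested genes with the largest increase and the largest decrease, and some items are not reported here. Inppl1, Socs6 and the genes among the other observations were named after their values were seen. Marker lists covered muscle fibre, adipocyte, endothelium, erythroid cells, macrophage, neutrophil, lymphocyte, Schwann cell and perineurium, and fibroblast.

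Alternatives included a normexp correction (offset 50) of median spot signals, since the mean spot signal was not a column of the files; quantile, median and detected-probe scaling; no filter, or detection on every array required; averaging a gene's probes; a variance trend in eBayes; the slide row as a block; the replicate block; the series matrix; and leaving out each mouse in turn. Scaling to the 10 fibre markers, testing every kept probe, and the count at an unadjusted p under 0.05 were added after seeing the data.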

Additional observations from a re-analysis of the deposited data

How the results depend on the processing

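Slide row block aside, no member passed the threshold (0 of 10) under any alternative run, and 0 or 1 had an unadjusted limma p under 0.05. That member was Slc2a4, except without young mouse 3, where it was Tbc1d1 (change -1.0). The slide row block, where 1 aged mouse stands for its group, is left out of these counts. Slc2a4, Irs1 and Tbc1d1 were lower in aged mice under every alternative run, several of which leave a gene's value as it is by construction. The slide row as a block, which rests on aged mouse 1 against the young mice, turned Insr to 0.28, Tbc1d4 to 0.92 and Doc2b to 0.90, and the median of the members to 0.13. Scaling to the fibre markers, which moved the median of all genes by 0.25, turned Insr to 0.060, Irs2 to 0.045 and Tbc1d4 to 0.010, and the median of the members to 0.052; it adds the same amount to every gene. Median scaling moved all genes by -0.15 and turned Akt2 to -0.054 and Slc2a3 to -0.056. The mean of all probes turned Insr to 0.0069. Leaving out 1 mouse at a time gave -0.34 to 0.085 for the median of the members (above 0 only without aged mouse 3), -0.42 to 0.027 for Insr, -0.40 to 0.050 for Irs2, -0.57 to 0.57 for Pik3r1, -0.81 to 0.12 for Tbc1d4, -0.16 to 0.47 for Slc2a1, -0.040 to 0.27 for Slc2a3 and -0.34 to 0.61 for Gab1. Apart from the constants named, the cause of these turns was not tested.

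The 53 genes called among all genes became 8 without a filter (36710 genes tested), 35 where every array had to detect a probe (18551 tested), 199 without aged mouse 1, 1 without aged mouse 3, and 8 or 9 without any other mouse. The numbers in the sample names did not pair the mice (correlations of same-numbered deviations -0.06, -0.27 and 0.03). With the replicate block the calls fell to 5, the change of Slc2a4 stayed -0.42 with an adjusted p of 0.521, and the median of the members stayed -0.20.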

Other observations

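Some further pathway genes are named because their groups did not overlap. Among PI3-kinase catalytic subunits, Pik3ca measured 0.50, 0.18 and -0.97 in young mice and 0.67, 0.58 and 0.93 in aged mice, a log2 change of 0.82 with a limma adjusted p of 0.382. Pik3cd, best known from leukocytes, measured 0.09, -0.21 and -0.25 in young mice and -0.77, -0.58 and -0.93 in aged mice, a change of -0.63 with an adjusted p of 0.215. The GTPase genes of GLUT4 traffic differed in direction: Rab13 had a change of 0.92 (adjusted p 0.268) and Rhoq, which encodes TC10, one of -0.47 (adjusted p 0.259). Rab14 was also lower, with a change of -0.13 (adjusted p 0.713). Rhoq measured 6.19, 6.20 and 6.26 in young mice and 5.88, 5.74 and 5.62 in aged mice. Of the myosin genes of vesicle transport, Myo5a had a change of 0.50 (adjusted p 0.271) and Myo1c one of -0.25 (adjusted p 0.536). Over the pathway genes tested, 14 of 74 had an unadjusted limma p under 0.05, beside 3016 of all 20900 genes (14.4%). Groups without overlap were found for 16 of 74, beside 4559 of all 20900 genes (21.8%).

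Pik3r1 shared its order of mice, aged mouse 1 highest and young mouse 3 lowest, with genes such as Gab1, Mtor and Txnip. The endothelial markers Pecam1 and Tek had this order too. Gab1 measured -0.67, -0.26 and -2.13 in young mice and 0.02, -1.59 and -0.84 in aged mice. Pecam1 measured -0.42, -0.34 and -2.33 in young mice and 0.05, -0.99 and -0.58 in aged mice. Tek measured -1.50, -1.81 and -3.75 in young mice and -1.44, -2.68 and -1.56 in aged mice. The endothelial markers Cdh5, Kdr, Vwf and Emcn had other orders. Cdh5 measured 2.55, 2.94 and 2.81 in young mice and 2.36, 1.87 and 1.70 in aged mice.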
